A study of Mus musculus with 6 samples.

Results

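The genes described here are 38 mouse genes of protein folding: heat shock chaperones of the cytosol and mitochondria, heat shock factors, chaperones of the endoplasmic reticulum, and regulators of the unfolded protein response. They were chosen by name, with earlier results of these data known. Of the 38, 36 had an array probe annotated to that gene alone, among 18193 genes with such a probe in the whole table, and 34 were bright enough to be tested, among 14067 genes tested. Each gene was read from its single-gene probe with the highest mean over the 6 arrays. Hsp90ab1 and Hsf1 had no such probe, and Hspa1a and Hsf2 lay below the filter on low signal, a log2 value of 4.70.

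The study measured RNA from brain tissue, named cerebellum in the series title, on 6 Affymetrix expression arrays, 3 from wild-type mice and 3 from Gb5-deficient mice, which the labels also call KO. Gb5 is the product of Gnb5, a neuronal beta subunit of G proteins that pairs with a family of RGS proteins. The labels describe littermate cohorts of the same age and sex and 3 biological replicates of each genotype. They give neither the strain, the age, the treatment, nor how the Gnb5 allele was made, and they do not say whether animals were pooled. The comparison of the genotypes asks which transcripts differ when Gb5 is missing.

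Chaperones of the Hsp70 family bind unfolded protein and release it in a cycle driven by ATP. J-domain proteins such as the Dnaj family start the cycle, and nucleotide exchange factors end it. In the cytosol, misfolded protein frees heat shock factors, which bind repeated GAA units in the promoters of chaperone genes. In the endoplasmic reticulum, misfolded protein activates the sensors Ern1, Eif2ak3 and Atf6, and their transcription factors Xbp1, Atf4 and cleaved Atf6 raise the genes of folding and degradation. Purkinje cells of the cerebellum are known to be sensitive to loss of this control: loss of Sil1, an exchange factor for Hspa5, causes their degeneration in mice.

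The promoter elements known from either response are shown first, because the values of genes with and without them are given further on. RefSeq windows from 250 bases before to 50 bases after the annotated gene start (build GRCm38.p6) were found for 31 of the 38 genes. Windows were missing from the table used for Hyou1, Hspa9, Hspa8, Hsf1, Manf, Hsp90aa1 and Hsp90ab1. The endoplasmic reticulum stress element, searched as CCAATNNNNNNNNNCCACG on both strands, lay in the windows of 7 of 12 endoplasmic reticulum chaperones (58.3%), against 37 of 27025 genes in the table (0.137%). It was found in 0 of 11 cytosolic genes and 0 of 5 response regulators. In the lines below each element has 10 bases on either side, is written 5′ to 3′ on the strand of the gene, and has both of its ends in capitals; Hsp90b1 carries 2, and CGTGG followed by ATTGG is the element read on the other strand.
Hspa5, chr2:34772015-34772053, plus strand: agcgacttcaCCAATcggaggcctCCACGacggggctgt
Hsp90b1, chr10:86705628-86705666, minus strand: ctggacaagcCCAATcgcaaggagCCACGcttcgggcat
Hsp90b1, chr10:86705523-86705561, minus strand: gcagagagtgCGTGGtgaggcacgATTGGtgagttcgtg
Calr, chr8:84847065-84847103, minus strand: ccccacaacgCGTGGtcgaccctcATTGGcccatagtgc
Canx, chr11:50325790-50325828, minus strand: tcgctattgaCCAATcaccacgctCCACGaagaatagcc
Pdia6, chr12:17266481-17266519, plus strand: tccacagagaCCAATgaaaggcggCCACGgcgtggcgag
Dnajc3, chr14:118937817-118937855, plus strand: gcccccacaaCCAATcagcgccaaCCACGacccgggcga
Creld2, chr15:88819510-88819548, plus strand: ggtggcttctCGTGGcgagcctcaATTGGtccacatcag

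The element of Hspa5, the gene of the Hsp70 chaperone BiP, began at position -65 relative to the annotated start. The 150 bases before that start are given whole, since Hspa5 was the 1 endoplasmic reticulum chaperone whose genotypes did not overlap; the element is in capitals.
Hspa5, chr2:34771940-34772089, plus strand: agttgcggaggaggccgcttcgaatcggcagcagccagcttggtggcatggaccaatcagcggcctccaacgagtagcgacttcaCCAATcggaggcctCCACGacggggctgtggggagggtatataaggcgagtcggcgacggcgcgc

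The heat shock element, searched as GAANNTTCNNGAA on both strands, lay in 179 of the 27025 genes (0.662%). Among the genes described here it was present in 2 of 11 cytosolic genes, Chordc1 and Hsph1, in both mitochondrial genes with a window, Hspd1 and Hspe1, and in 0 of 12 endoplasmic reticulum chaperones. Hspd1 and Hspe1 lie head to head on opposite strands, and both windows hold the same element. The Hsph1 match lies wholly after the gene start, at positions 15 to 27 from 1 annotated start and 36 to 48 from another. The units GAA and TTC are in capitals below. A match to these letters is a description of the sequence and not evidence that a factor binds there. Only exact matches within the windows were searched, so a gene without a match may still carry a looser or more distant element.
Hspe1 (shared with Hspd1), chr1:55088053-55088082, plus strand: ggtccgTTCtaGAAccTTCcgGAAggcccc
Chordc1, chr9:18292260-18292289, plus strand: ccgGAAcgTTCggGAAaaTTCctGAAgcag
Hsph1, chr5:149636287-149636316, minus strand: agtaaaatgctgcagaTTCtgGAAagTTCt

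**Figure D1:**
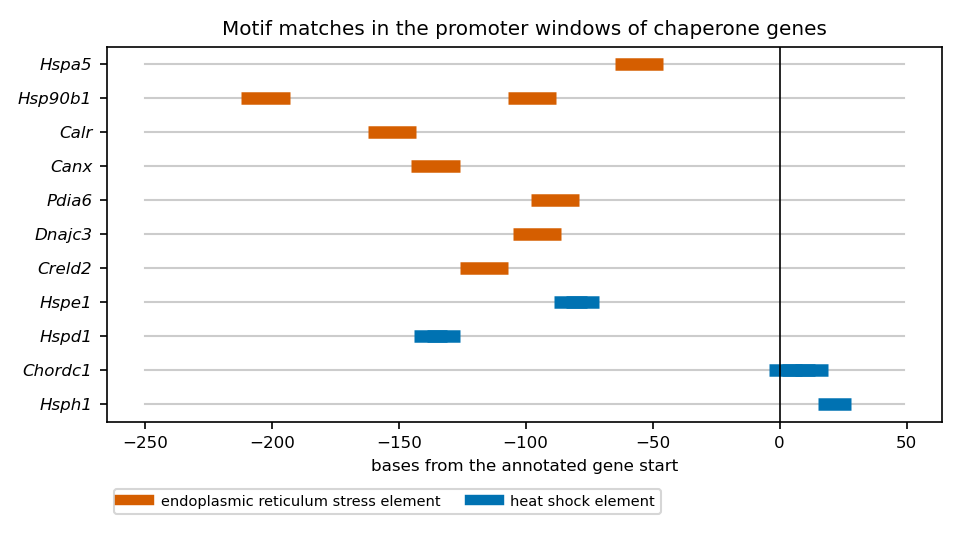
Position of motif matches (bars, drawn to scale) in bases from the annotated gene start (vertical line) for the 11 chaperone genes with a match; grey lines are the windows searched. The stress elements of the 7 endoplasmic reticulum genes all lie before the start. The heat shock elements of Chordc1 run across it, and that of Hsph1 lies after it.

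Facts of the whole data set set the precision. Gnb5 read 8.80, 8.51 and 8.70 (log2) on the wild-type arrays and 3.65, 3.36 and 2.96 on the Gb5-deficient arrays, as the genotype labels state. The Purkinje cell genes Pcp2 and Calb1 and the granule cell gene Gabra6, markers of the cerebellum named in the series title, read above 12 on every array. The other measured markers of these cells ranged down to Grin2c, at 8.81 to 9.73. Gb5-deficient array 6 stood apart: Eif2s3y, a Y-linked gene, read 11.80 there and 3.19 to 3.43 elsewhere, and Xist read 8.22 there and 11.17 to 11.64 elsewhere, while the labels call the cohorts sex matched. The 3′ minus 5′ difference of the Gapdh control probes, a sign of RNA quality, was 1.03, 1.04 and 1.03 on the wild-type arrays and 1.14, 1.07 and 1.58 on the Gb5-deficient arrays, higher on every Gb5-deficient array and most so on array 6. The same difference of the beta-actin control probes was 2.76, 2.84 and 2.76 in wild type, then 2.84, 2.95 and 3.18. It exceeded every wild-type array on arrays 5 and 6 but not on array 4. The part of either difference in the results was not tested. The medians of all chaperone genes and of the cytosolic and endoplasmic reticulum groups are also given without array 6. So are the fold changes of at least 0.1 in size that moved by over 1.5 times without it. Across all 14067 genes the SE of the log2 fold change had a median of 0.12, and the fold change itself a median of 0.03.

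None of the 34 chaperone genes passed the test between genotypes (limma with Benjamini-Hochberg adjustment over all genes, threshold 0.05); the lowest adjusted p among them was 0.423. Of all genes 0.0355% passed, 0.00711% as higher and 0.0284% as lower. An unadjusted limma p under 0.05 was found for 4 of the 34, Hspa4, Hsph1, Chordc1 and Hspa5, which is 11.8% against 8.57% of all genes. The 3 arrays of one genotype lay entirely above the 3 of the other for 5 genes: Hspa4, higher without Gb5, and Hsph1, Dnajb4, Chordc1 and Hspa5, lower. That is 14.7% of the 34, beside 14.9% of all genes, so the count stands at the background. Hspa4 is in both counts through a probe that is its brightest only because of the Gb5-deficient arrays, as described below. By direction, 1 higher and 4 lower genes stood beside 10.1% and 4.82% of all genes. The fold change was below 0 for 23 of the 34 (67.6%), against 43.3% of all genes, and its median was -0.04 on the log2 scale; without Gb5-deficient array 6 the median was also -0.04, and without wild-type array 3 it was -0.02.

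**Figure D2:**
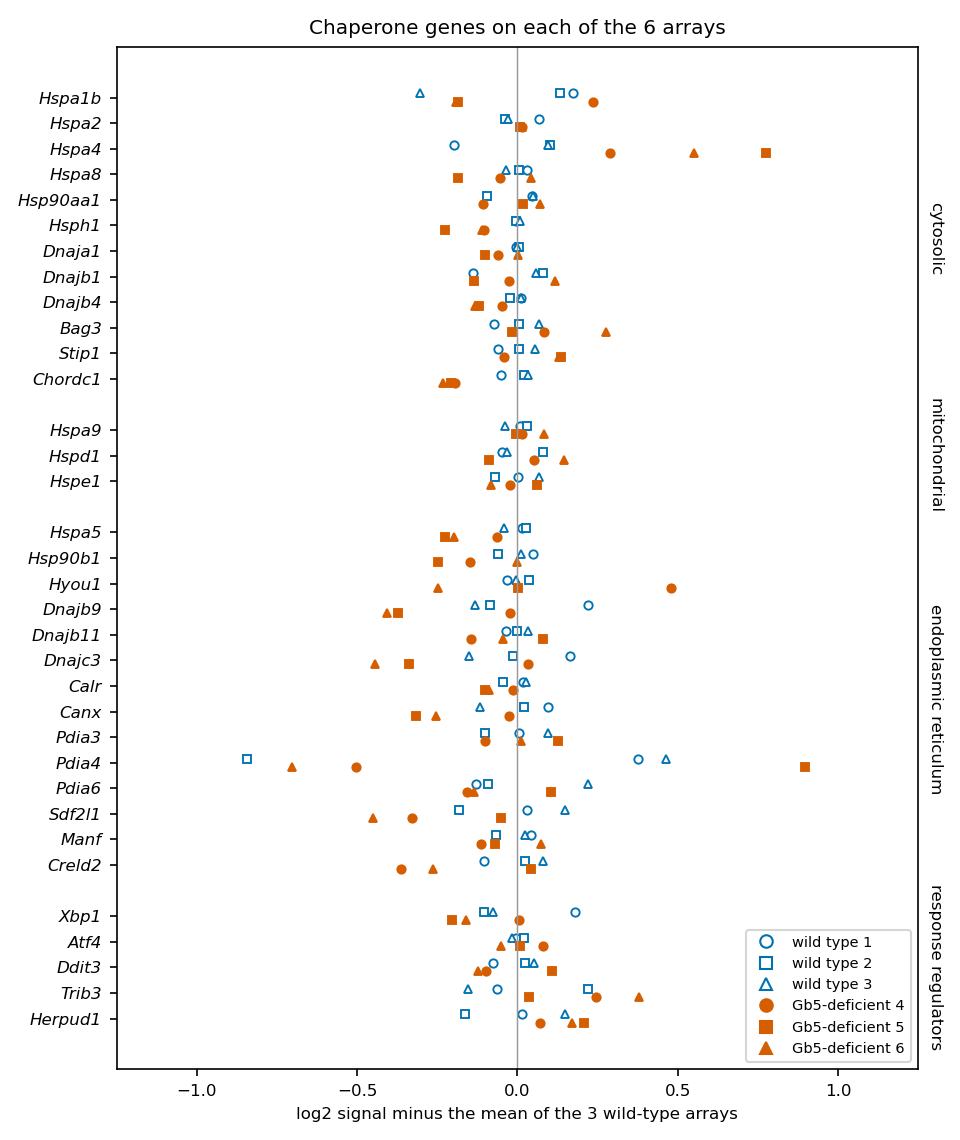
Log2 signal on each array minus the mean of the 3 wild-type arrays, for the 34 chaperone genes tested, by role (open blue: wild type; filled orange: Gb5-deficient; the shape gives the array). Hspa4 and Pdia4 reach furthest from the wild-type mean, Hspa4 with all Gb5-deficient arrays higher and Pdia4 with both genotypes on both sides.

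The cytosolic chaperones had differences on both sides of 0, from -0.21 for Chordc1 to 0.54 for Hspa4. The genotypes did not overlap for Hspa4, higher, and for Hsph1, Dnajb4 and Chordc1, lower. These were 33.3% of the 12 tested, against 14.9% of all genes. By direction, 1 higher and 3 lower genes stood beside 10.1% and 4.82% of all genes. An unadjusted limma p under 0.05 was found for 3 (25.0%), against 8.57% of all genes. The median over the 12 was -0.03, with 8 values lower and 4 higher in Gb5-deficient tissue. These counts, the range and the median include Hspa4 through a probe that is its brightest only because of the Gb5-deficient arrays. The Hspa4 probe that is brightest in wild type differed by -0.07, with overlapping arrays. Leaving out Gb5-deficient array 5 gave a median of 0.0041, and leaving out array 6 gave -0.06. In bulk tissue, fewer cells of a type and less RNA per cell cannot be told apart, here or for the other groups.

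Hspa4 is a member of the Hsp110 family, which serves Hsp70 proteins as an exchange factor. Its representing probe read 10.68, 10.98 and 10.97 on the wild-type arrays and 11.16, 11.65 and 11.43 on the Gb5-deficient arrays. All 3 Gb5-deficient arrays were higher than every wild-type array. The log2 fold change was 0.54 (SE 0.13, 95% interval 0.23 to 0.84), with an limma adjusted p of 0.423. The other Hspa4 probes did not share it. The next brightest read 11.03 ± 0.09 in wild type and 10.96 ± 0.04 in Gb5-deficient tissue (SD, n = 3), a difference of -0.07 (SE 0.08), and the third differed by -0.08 (SE 0.12). The dimmest differed by 0.06 (SE 0.16). The 95% intervals of the second and the third, -0.25 to 0.10 and -0.35 to 0.19, end below the lower bound of the representing probe. In wild type the second probe was the brighter (11.03 against 10.88), so the representing probe was picked through the genotype in which it is high. The fold change is that of 1 probe and not of the gene by all its probes.

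Hsph1 is the other cytosolic Hsp110 family member of the list and a heat-inducible one. It read 12.85, 12.85 and 12.86 in wild type and 12.75, 12.63 and 12.74 without Gb5. The wild-type arrays were nearly equal (SD 0.0076) and all Gb5-deficient arrays were lower. The log2 fold change was -0.15 (SE 0.05, limma adjusted p = 0.553), and its second probe gave -0.19 (SE 0.11), so both probes had the lower value.

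Chordc1 encodes a co-chaperone of Hsp90. It read 11.32, 11.39 and 11.40 in wild type and 11.18, 11.16 and 11.14 without Gb5. Every Gb5-deficient array was lower, with little spread in either genotype. The log2 fold change was -0.21 (SE 0.07, 95% interval -0.36 to -0.06) with an adjusted p of 0.541 by limma. Together with Hsph1 it was 1 of the 2 cytosolic genes with a heat shock element in the window; over all 62 tested genes with that element, 27 values were lower and the median was 0.03.

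Dnajb4 encodes a J-domain partner of Hsp70. It read 10.23, 10.19 and 10.23 in wild type and 10.17, 10.10 and 10.09 without Gb5. The genotypes did not overlap, but the fold change of -0.10 had an SE of 0.08 and an interval of -0.28 to 0.08.

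Hspa1b, Hsp90aa1, Dnajb1 and Bag3, heat-inducible like Hsph1 above, had differences smaller than their SEs. Hspa1b, the stress-inducible Hsp70, read 10.15, 10.11 and 9.68 in wild type and 10.22, 9.79 and 9.79 without Gb5. High and low arrays occurred in both genotypes, with SDs of 0.26 and 0.25, and the fold change was -0.05 (SE 0.16). The other Hspa1b probes had means of 4.23 and 3.38 in wild type and 4.16 and 3.33 without Gb5, below the filter value. The level is thus that of 1 probe. Hspa1a, a near-identical copy, read between 3.92 and 4.36, under the filter; signal of such copies can be shared between probes. Hsp90aa1, the inducible Hsp90, and Dnajb1, a heat-induced J-domain protein, differed by -0.01 each (SE 0.06 and 0.09). Bag3, a co-chaperone that directs clients to autophagy, read 6.88, 6.96 and 7.02 against 7.04, 6.94 and 7.23, a difference of 0.11 (SE 0.12) with overlapping arrays, and 0.03 without array 6.

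Hspa8, Dnaja1, Hspa2 and Stip1 had small differences on their brightest probes. Hspa8, the constitutive Hsp70 Hsc70, differed by -0.07 (SE 0.06) on its representing probe and by -0.05 on each of the next 2. The dimmest Hspa8 probe read 8.16, 8.21 and 7.96 in wild type and 7.52, 7.28 and 7.16 without Gb5. All 3 Gb5-deficient arrays were lower there, by -0.79 (SE 0.14), with an limma adjusted p of 0.282 over all probes. Which transcript form that probe reads was not tested. Dnaja1, a J-domain protein, differed by -0.05 (SE 0.05), Hspa2, an Hsp70 best known from the testis, by 0.01 (SE 0.06), and Stip1, which bridges Hsp70 and Hsp90, by 0.08 (SE 0.10). On the 3 Gb5-deficient arrays Hspa2 read 11.78, 11.77 and 11.78, and on the 3 wild-type arrays Dnaja1 read 12.36, 12.37 and 12.36.

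**Figure D3:**
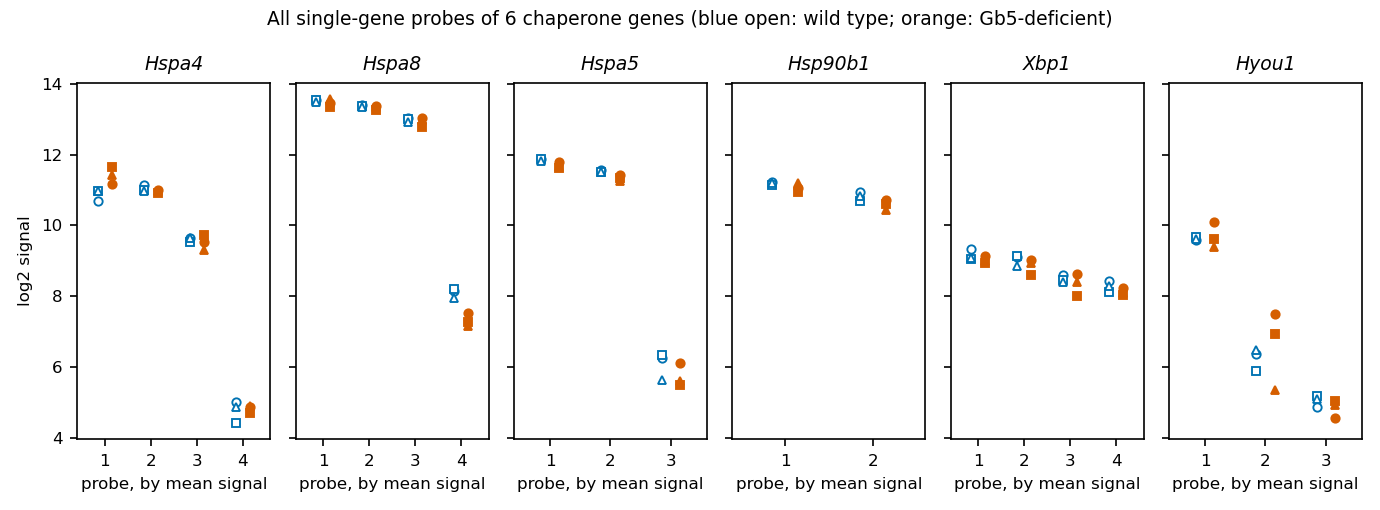
Log2 signal of every single-gene probe of 6 chaperone genes, ordered by mean signal, with 3 wild-type arrays (open blue) and 3 Gb5-deficient arrays (filled orange) per probe; shapes give the array (circle 1 and 4, square 2 and 5, triangle 3 and 6). The first Hspa4 probe is higher without Gb5 and its second is not, while the dimmest Hspa8 probe is lower.

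The mitochondrial chaperones had differences smaller than their 95% intervals. Hspa9, the mitochondrial Hsp70, read 11.55, 11.57 and 11.50 in wild type and 11.55, 11.53 and 11.62 without Gb5, a difference of 0.03 (SE 0.06, 95% interval -0.11 to 0.18). Hspd1, the chaperonin Hsp60, read 10.69, 10.81 and 10.70 against 10.79, 10.64 and 10.88, a difference of 0.04 (SE 0.09). Its lid protein Hspe1, whose start lies beside that of Hspd1, read 12.83, 12.76 and 12.89 against 12.80, 12.89 and 12.74, a difference of -0.01 (SE 0.06). The arrays of the genotypes overlapped for all 3 genes. On the Gb5-deficient arrays the order differed within the pair: Hspd1 was lowest and Hspe1 highest on array 5, and the reverse held on array 6.

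Hsf2, a heat shock factor, read 4.28, 4.34 and 4.07 in wild type and 4.24, 4.24 and 4.26 without Gb5, under the filter, and was not tested.

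The endoplasmic reticulum chaperones mostly had lower values without Gb5, though none passed. Of 14 tested, 12 had a lower value in Gb5-deficient tissue (85.7%), against 43.3% of all genes, and the median fold change was -0.12. The higher values were those of Hyou1 and Pdia3. Without Gb5-deficient array 6 the median was again -0.12, with 11 lower values; over all 6 leave-one-out fits it ran from -0.16 to -0.09, with 10 to 13 lower. The median over the group of each array's deviation from the gene means was 0.08, 0.00 and 0.06 on the wild-type arrays and -0.09, -0.04 and -0.14 on the Gb5-deficient arrays. Those of the cytosolic group were 0.05, 0.03 and 0.02, then -0.02, -0.07 and 0.05. Over all genes they were -0.0365, 0.0005 and -0.0009, then 0.0020, 0.0293 and 0.0080. For the endoplasmic reticulum genes these medians were lower on every Gb5-deficient array than on any wild-type array. Over all genes they were higher on every Gb5-deficient array. The myelin and red blood cell genes given below also had a lower median on every Gb5-deficient array. For the cytosolic genes array 6 was level with wild type. Gene by gene within the endoplasmic reticulum group, the genotypes overlapped in all but Hspa5, 1 of the 14 (7.14%), beside 14.9% of all genes. The Gapdh difference given above was also higher on every Gb5-deficient array, and the beta-actin difference on arrays 5 and 6. The difference between the medians of the groups was -0.09, which became -0.06 without array 6 and -0.14 without Gb5-deficient array 5. It was described and not tested, because the groups were chosen with earlier results known. The cytosolic median in it includes Hspa4 through its representing probe.

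Hspa5 (BiP), the Hsp70 of this compartment and the standard reporter of its stress response, read 11.88, 11.89 and 11.82 in wild type and 11.80, 11.64 and 11.66 without Gb5. Its lowest wild-type array stood just above its highest Gb5-deficient array. The fold change was -0.16 (SE 0.07, 95% interval -0.31 to -0.01, limma adjusted p = 0.574). Its second probe read 11.56, 11.52 and 11.51 against 11.41, 11.35 and 11.26, without overlap, a difference of -0.19 (SE 0.07). The dimmest probe differed by -0.34 (SE 0.23) with overlapping arrays, so all 3 probes had lower values.

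Hsp90b1 (Grp94), the Hsp90 of the compartment, read 11.24, 11.13 and 11.20 in wild type and 11.04, 10.94 and 11.19 without Gb5. Array 6 alone reached the wild-type range. The fold change was -0.13 (SE 0.08), and the second probe gave -0.23 (SE 0.10).

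The J-domain partners of Hspa5 held 2 of the 3 lowest fold changes of the group. Dnajb9, a binder of misfolded protein that the Xbp1 branch is known to induce, read 11.42, 11.12 and 11.07 in wild type and 11.18, 10.83 and 10.80 without Gb5. Dnajc3 read 10.85, 10.67 and 10.53 against 10.72, 10.34 and 10.24. In both, array 1 was the highest of all, array 4 lay inside the wild-type range, and arrays 5 and 6 lay below it. The fold change of Dnajb9 was -0.27 (SE 0.13), and -0.16 without wild-type array 1. That of Dnajc3 was -0.25 (SE 0.14), -0.15 without array 6 and -0.39 without array 4. The other Dnajc3 probes gave -0.07 (SE 0.16), 0.01 (SE 0.11), -0.10 (SE 0.11) and, on the dimmest, -0.36 (SE 0.17), so its lower value was not shared by all probes. Dnajb11, another J-domain protein, differed by -0.04 (SE 0.10).

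The lectin chaperones Calr and Canx hold glycoproteins until they are folded. Canx, the membrane-bound one, read 11.75, 11.68 and 11.54 in wild type and 11.63, 11.34 and 11.40 without Gb5, again with array 4 inside the wild-type range. Its fold change was -0.20 (SE 0.09); its other probes gave -0.03 (SE 0.10) and -0.40 (SE 0.13). The 3 Calr probes gave -0.07, -0.06 and -0.07 (SE 0.06, 0.06 and 0.09 in the fit over all probes).

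Sdf2l1, which works with Dnajb11 and Hspa5, read 7.24, 7.02 and 7.35 in wild type and 6.87, 7.15 and 6.75 without Gb5, a fold change of -0.28 (SE 0.14). Creld2, a secreted stress-induced protein, read 9.44, 9.57 and 9.63 against 9.18, 9.59 and 9.28, a fold change of -0.19 (SE 0.12). Unlike the J-domain genes, in these it was Gb5-deficient array 5 that lay inside the wild-type range, and arrays 4 and 6 that lay below it. Manf, a secreted stress-induced factor, differed by -0.04 (SE 0.10).

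On their representing probes the disulfide isomerases did not differ beyond their errors. Pdia4 read 6.61, 5.39 and 6.69 in wild type and 5.72, 7.12 and 5.52 without Gb5. It was high on arrays 1, 3 and 5 and low on arrays 2, 4 and 6, so its SDs of 0.73 and 0.87 were the widest of the group and its fold change of -0.10 had an SE of 0.46 and was 0.20 without array 6. Pdia6 read 7.69, 7.73 and 8.04 against 7.66, 7.92 and 7.68, with its highest values on arrays 3 and 5 and a fold change of -0.06 (SE 0.13). Pdia3 differed by 0.01 (SE 0.09), and by -0.25 (SE 0.12) on its second probe. Hyou1, an exchange factor for Hspa5, read 9.60, 9.66 and 9.63 in wild type (SD 0.03) and 10.11, 9.63 and 9.38 without Gb5 (SD 0.37). Its fold change of 0.08 (SE 0.17) came from array 4 and was -0.12 without it.

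**Figure D4:**
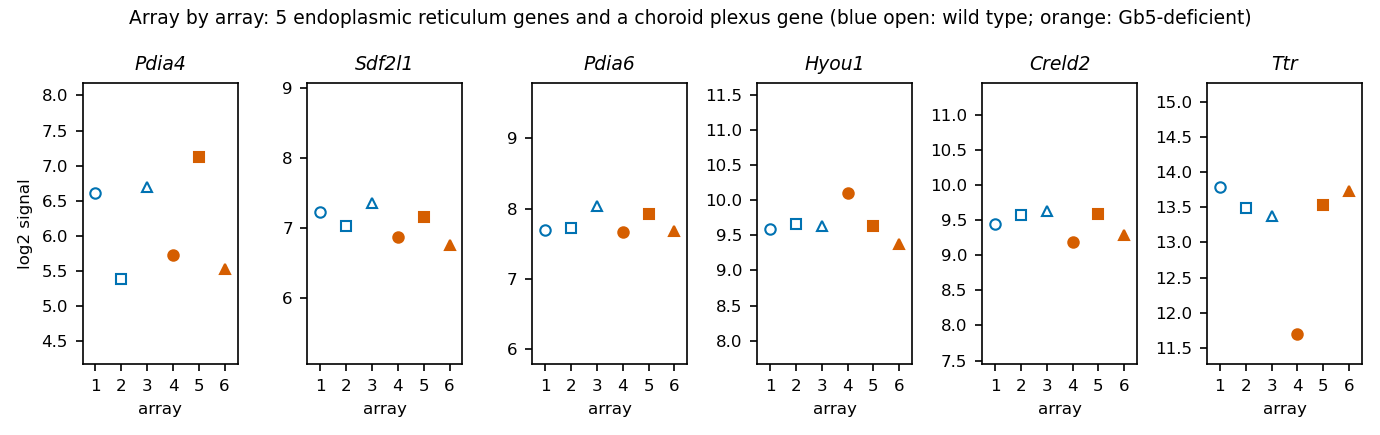
Log2 signal on each of the 6 arrays for Pdia4, Sdf2l1, Pdia6, Hyou1 and Creld2 and for the choroid plexus gene Ttr; every panel spans the same number of log2 units. Pdia4 is high on arrays 1, 3 and 5, Hyou1 is highest on array 4, and Ttr is lowest there.

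The values were also set beside the promoter elements. The 7 endoplasmic reticulum chaperones with the stress element all had lower values, from -0.25 to -0.06, with a median of -0.16. The 5 with a window but no element had 4 lower values, from -0.28 to 0.01, and a median of -0.10. That median is the value of Pdia4, which had an SE of 0.46 and was 0.20 without array 6. Sdf2l1 (-0.28) and Dnajb9 (-0.27), the lowest of the whole endoplasmic reticulum group, are among the genes without the element. The difference between these medians was not tested. Of the 16 tested genes in the table that carry the element, the other 9 had 2 lower values and a median of 0.06.

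The regulators of the unfolded protein response had values on both sides. Xbp1, a transcription factor that Ern1 activates by splicing its RNA, read 9.33, 9.04 and 9.07 in wild type and 9.15, 8.94 and 8.99 without Gb5, a fold change of -0.12 (SE 0.12). Array 1 was its highest, as for Dnajb9 and Dnajc3. Its other 3 probes gave -0.18, -0.14 and -0.17, with overlapping arrays for each; whether the spliced form differed cannot be read from these values.

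Trib3, a pseudokinase induced by Atf4 and Ddit3, read 5.95, 6.23 and 5.86 in wild type and 6.26, 6.05 and 6.39 without Gb5, a fold change of 0.22 (SE 0.14), or 0.14 without array 6. Herpud1, a membrane protein of endoplasmic reticulum degradation, read 9.53, 9.35 and 9.67 against 9.59, 9.73 and 9.69, a fold change of 0.15 (SE 0.11). The arrays overlapped for both. Ddit3 (CHOP), a transcription factor of prolonged stress, read 8.09, 8.19 and 8.22 against 8.07, 8.28 and 8.05, a fold change of -0.04 (SE 0.11). Atf4 differed by 0.01 (SE 0.07, 95% interval -0.16 to 0.18). The median over the 5 regulators was 0.01.

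**Figure D5:**
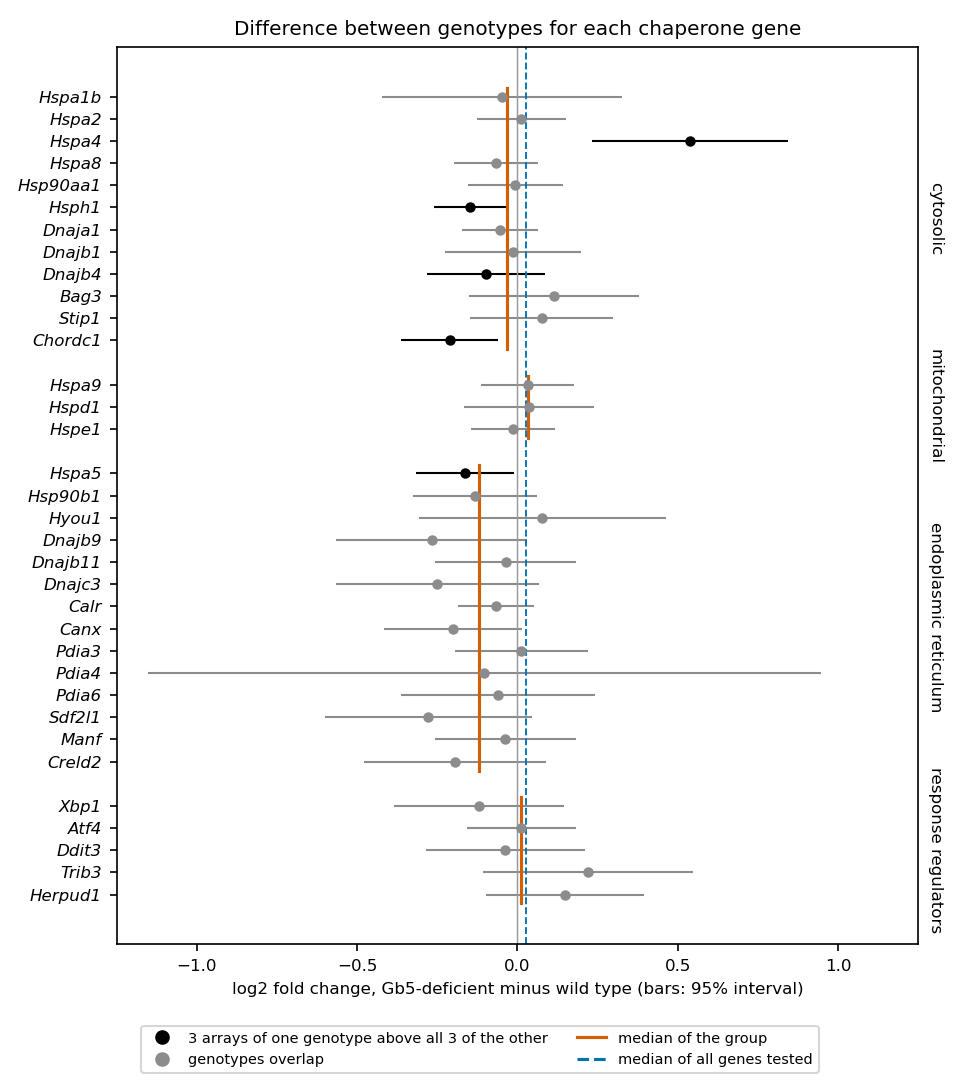
Log2 fold change (Gb5-deficient minus wild type) of the 34 chaperone genes tested, with 95% intervals, by role; black marks the 5 genes whose genotypes did not overlap, and lines give the median of each role and of all genes. Of the 14 endoplasmic reticulum genes, 12 lie below 0 around a median of -0.12, and most intervals cross 0.

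The other genes of these pathways came from lists that were also chosen with earlier results of these data known. They gave 0 passing genes in each of 6 lists by the same limma test, beside the 0.0355% of all genes. Of their 118 genes, 12 (10.2%) had an unadjusted limma p under 0.05, against 8.57% of all genes. Each of the 118 was read from its representing probe, and other probes of the same gene were not compared 1 by 1. Of 16 sensors and kinases of the unfolded protein response, 5 did not overlap between genotypes (31.2%, against 14.9% of all genes), 4 higher and 1 lower, against 10.1% and 4.82%. The lower gene was Atf6, a membrane-bound transcription factor that is cut on stress. It read 9.42, 9.28 and 9.30 in wild type and 9.25, 8.97 and 8.73 without Gb5, a fold change of -0.35 (SE 0.14, limma adjusted p = 0.574). Mbtps1, the protease that makes the first cut in Atf6, read 9.79, 9.90 and 9.89 against 10.08, 9.97 and 10.45, a fold change of 0.31 (SE 0.13). Both genes had their most extreme value on array 6, and without it their fold changes were -0.22 and 0.17. Ern1 and Eif2ak3, the other sensors, differed by -0.08 (SE 0.12) and 0.08 (SE 0.14). The lowest and highest of the rest were Creb3l2, a relative of Atf6, at -0.19 and Ppp1r15a, which restores translation after stress, at 0.26, or 0.15 without array 6. The list's median was -0.01.

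The other endoplasmic reticulum folding genes were evenly split. Of 26 tested, 13 were lower and 13 higher, with a median of 0.01. Hspa13 (-0.14) and Dnajc10 (-0.11) were lowest and Txndc5 (0.25) and Sil1 (0.28) highest; without array 6 Hspa13 gave -0.09 and Txndc5 0.11. Of 16 degradation genes 8 were lower and 8 higher, with a median of -0.01; Derl2 (-0.30) and Erlec1 (-0.24) were lowest and Derl1 (0.08) and Vcp (0.11) highest. Without array 6 Derl2 gave -0.19 and Erlec1 -0.15. Of 20 genes known as targets of Atf4, 13 were higher and 7 lower, with a median of 0.03; Vegfa (-0.23) and Nupr1 (-0.14) were lowest, and the amino acid transporter Slc7a5 (0.21) and the tRNA synthetase Aars (0.38, or 0.23 without array 6) highest.

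Among 31 other cytosolic chaperones and co-chaperones, 17 were higher and 14 lower, with a median of 0.03. Cryab, a small heat shock protein also known from oligodendrocytes, read 12.16, 12.10 and 11.98 in wild type and 11.40, 11.70 and 11.75 without Gb5. All Gb5-deficient arrays were lower, by -0.46 (SE 0.10, limma adjusted p = 0.357). Bag5 and Hspbp1, both regulators of nucleotide exchange on Hsp70, were higher on every Gb5-deficient array, by 0.39 (SE 0.12) and 0.32 (SE 0.12). Hspa14, a ribosome-bound Hsp70, differed by -0.34 (SE 0.28), and by -0.03 without Gb5-deficient array 5. Of 9 other mitochondrial chaperones and proteases, 8 were higher and the median was 0.11, from Dnaja3 (-0.05) and Clpp (0.02) to the protease Lonp1 (0.26, or 0.15 without array 6) and the Hsp90 Trap1 (0.33).

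Markers of other cells also differed with genotype, although none passed the limma test. Of 4 red blood cell genes tested, 3 (Alas2, Slc4a1 and Hbb-b2) were lower on every Gb5-deficient array, by -2.08, -1.90 and -0.60, and Hba-a2 differed by 0.08. The log2 of the summed signal of the 5 with a probe ran from 11.83 to 12.07 in wild type and 11.12 to 11.42 without Gb5. Of 5 myelin genes tested, Mobp, Mog and Cnp were lower on every Gb5-deficient array, by -0.20, -0.16 and -0.07, while Mbp differed by 0.02 and Mag by 0.18. Over all genes 4.82% were lower without overlap. The summed myelin level was 15.11 to 15.13 against 15.04 to 15.07. Of 5 meningeal genes tested 4 had lower values, with a summed level of 13.22 to 13.25 against 12.99 to 13.20. Among them Fmod alone was lower on every Gb5-deficient array, by -0.38. Choroid plexus genes varied between arrays rather than by genotype: Ttr read 13.79, 13.49 and 13.38 in wild type and 11.69, 13.54 and 13.74 without Gb5. The summed Purkinje cell level was 14.70 to 14.87 against 14.68 to 14.90, and that of granule cells 14.63 to 14.91 against 14.42 to 14.89. Of 6 granule cell genes tested, 4 had lower values. Grin2c alone did not overlap and was higher on every Gb5-deficient array, by 0.51. Over all genes 10.1% were higher without overlap. The part of these cells in the lower endoplasmic reticulum and Cryab values was not tested.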

How the data were processed

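Expression arrays from 3 wild-type and 3 Gb5-deficient mice were used, grouped by the sample labels. The authors' deposited table holds log2 signals, 1 per probe and array. RMA and Partek are named in the submitters' processing notes, without versions or roles; RMA normalizes arrays to 1 distribution, so a change in total RNA would not be seen. Detection calls and scan dates were not used here, and the number of arrays limits the precision. Per the labels' protocols, RNA was extracted with Trizol.

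Of 45037 probes besides controls, 34945 name 1 gene in the platform annotation, 932 several and 9160 none; symbols were updated through a RefSeq table (GRCm38.p6) for 34741. Each gene was read from its single-gene probe with the highest mean over the 6 arrays, and left out if that mean was at or under 4.70, the 30th percentile over probes; 4126 genes were removed. limma 3.58.1 in R 4.3.3 was fitted to all 14067 genes, with an intensity trend, two-sided, and Benjamini-Hochberg adjustment; SEs and 95% intervals come from it. It was tested on simulated data. A permutation of 3 against 3 arrays cannot give p below 0.1. Array pairs correlated at 0.991 to 0.997 and 0 pairs were identical.

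The genes, their roles and the other lists were chosen with earlier results of these data known. Every gene of the main list is named; genes whose arrays did not overlap or whose unadjusted p was under 0.05, and the 4 largest differences of each role, get values per array, as do others singled out after their values were seen. Of each other pathway list the 2 highest and 2 lowest genes and the 3 stress sensors are named. Motifs were counted in RefSeq promoter windows. Alternatives were other filters, normalizations, probe rules and variance models, array weights, an adjusted p of 0.1 and each array left out.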

Additional observations from a re-analysis of the deposited data

How the results depend on the processing

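In all 15 alternative settings 0 of the 34 chaperone genes passed (limma with Benjamini-Hochberg adjustment), also at an adjusted p of 0.1, while 2 to 7 had an unadjusted p under 0.05; the lowest adjusted p was 0.145, for Hspa4 without Gb5-deficient array 4. Of 897 values of 60 named genes, 845 kept their direction and 52 reversed, and the cause was not tested. The median over all chaperone genes, -0.0423, was -0.0681 with array medians subtracted, -0.0785 with a gene's probes averaged, and -0.0525 to -0.0153 with 1 array left out. The endoplasmic reticulum median stayed below 0 in each setting, and the cytosolic one did except without Gb5-deficient array 5.

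Reversed log2 fold changes were small in most genes. With array weights they were Hspa1b 0.0841, Pdia3 -0.0420, Clpp -0.0263 and Eif2ak3 -0.0225. With array medians subtracted they were Hspa2 -0.0133, Pdia3 -0.0138, Atf4 -0.0128 and Clpp -0.0009. A second quantile normalization gave Hsp90aa1 0.0131, Dnajb1 0.0046 and Hspe1 0.0074. With a gene's probes averaged they were Dnajb1 0.1054, Hspa9 -0.0856, Hspe1 0.0315, Pdia3 -0.1197, Pdia6 0.0260, Atf4 -0.0567, Dnaja3 0.0684 and Dnajc10 0.1487. With 1 array left out the direction depended on the array for these cytosolic and mitochondrial genes: Hspa1b from -0.1998 to 0.0386, Hspa2 from -0.0069 to 0.0466, Hsp90aa1 from -0.0542 to 0.0445, Dnajb1 from -0.0840 to 0.0459, Hspd1 from -0.0196 to 0.0985, Hspe1 from -0.0532 to 0.0200. It did so for these endoplasmic reticulum genes: Hyou1 from -0.1236 to 0.2406, Dnajb11 from -0.0947 to 0.0179, Pdia3 from -0.0458 to 0.0690, Pdia4 from -0.6037 to 0.1965, Pdia6 from -0.1447 to 0.0483, Manf from -0.0922 to 0.0019. Among the others it did so for Atf4 from -0.0204 to 0.0445, Ddit3 from -0.1105 to 0.0062, Clpp from -0.0239 to 0.0777, Derl1 from -0.0335 to 0.2393, Vcp from -0.0044 to 0.2033, Ern1 from -0.1733 to 0.0097 and Eif2ak3 from -0.0375 to 0.1580.

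No paired analysis was possible because the replicate numbers of the genotypes are not shared. The alternative pseudocount was planned for linear values and was not run. With 3 arrays of each genotype, the 95% interval of a typical chaperone gene reached 0.22 to either side of its fold change, which limits the differences that could be detected. Array 6 differs from the rest in sex-linked signals and most in the Gapdh control; their part in its values was not tested.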
